A study of Mus musculus with 2 samples.

Results

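Corticothalamic neurons of layer 6 and the neurons of layer 6b, the adult remnant of the subplate, form the deepest tier of the cortex. A set of 8 genes that mark these cells was followed here in ribosome-bound RNA of Drd2-expressing cells. They were taken by name: a probe set counted where the array annotation gave it that 1 gene only, which yielded 9 probe sets for the 8 genes, out of 23521 such probe sets for 22180 named genes. The values of the probe sets were not used to take them, but the genes and lists were chosen with earlier results of these data known. No probe set shared between a listed gene and another gene was found. The samples form 1 group, D2Cre::RiboTag mice, described as adult, with the medial prefrontal cortices of 5 animals pooled. In these mice Cre driven for the dopamine D2 receptor gene switches on a haemagglutinin tag on a ribosomal protein, and the tagged ribosomes were precipitated with their messengers. The labels name the cells Drd2+ neurons, do not say how the Cre driver was built, and give 2 arrays as technical replicates, taken here to share the pool. Every level below is a log2 signal. Every SD printed beside a gene's signals is over these 2 technical arrays of pooled tissue, so it holds no variation between animals. An SD of genes of like signal is instead the spread, over those genes, of the difference between the arrays.

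Layer 6 of the mouse cortex holds corticothalamic cells, which send axons to the thalamus and control how sensory and limbic signals pass through it. Their identity is set by a small group of transcription factors and corepressors, among which Tbr1 is required in development for layer 6 neurons to form and project correctly. Layer 6b cells lie just above the white matter, derive in part from the subplate, and are known by secreted and matrix-related products such as connective tissue growth factor. Some of these genes are also known from other cells: Foxp2 is also expressed in striatal projection neurons, and Ccn2 and Sulf1 can be expressed by cells of vessels.

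All 8 genes gave signal above background on both arrays, against 60.3% of all named genes. Background was taken from 1394 receptor genes of olfactory and vomeronasal neurons (the sensory receptor genes), whose 95th percentile was 5.61 on the first array (replicate 1) and 5.66 on the other (replicate 2). The median of the 8 genes was 7.995, with a range of 6.48 to 9.50, and the median of all named genes was 6.36 (means of both arrays). At the 99th percentile of the same genes (the 99th sensory receptor percentile), 6.64 on either array, 7 of the 8 passed, against 45.0% of named genes, the mean of the Ccn2 probe sets being the exception. A stricter threshold came from genes of other tissues (23 measured, of skeletal muscle, liver or testis), whose 95th percentile was 7.42 on replicate 1 and 7.45 on replicate 2. Of these 23 genes, 7 exceeded background, so the lower threshold is permissive. Tbr1, Tle4, Ntsr1, Sulf1 and Rprm passed it, 5 of 8, against 35.1% of named genes, while Foxp2, Nxph4 and the Ccn2 mean did not. That threshold leans on the testis gene Odf1, whose probe sets averaged 4.98 and 10.01. Without Odf1 it lay at 7.03 and 6.65, and 6 of the 8 passed, against 41.1% of named genes, Nxph4 being the gene gained. It also depends on which tissues are in the list. With the testis genes left out it lay at 7.29 and 7.02, and with the skeletal muscle genes left out at 7.20 and 6.93. Nxph4 then passed in both cases, giving 6 of 8, against 37.8% and 38.9% of named genes. With the liver genes left out it lay at 7.59 and 7.70, and Rprm no longer passed, giving 4 of 8, against 32.4% of named genes. Tbr1, Tle4, Ntsr1 and Sulf1 passed, and Foxp2 and the Ccn2 mean did not, under each of these lists. The median of all probe sets, 5.80 and 5.81, was exceeded by all 8 and by 57.5% of named genes.

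**Figure D1:**
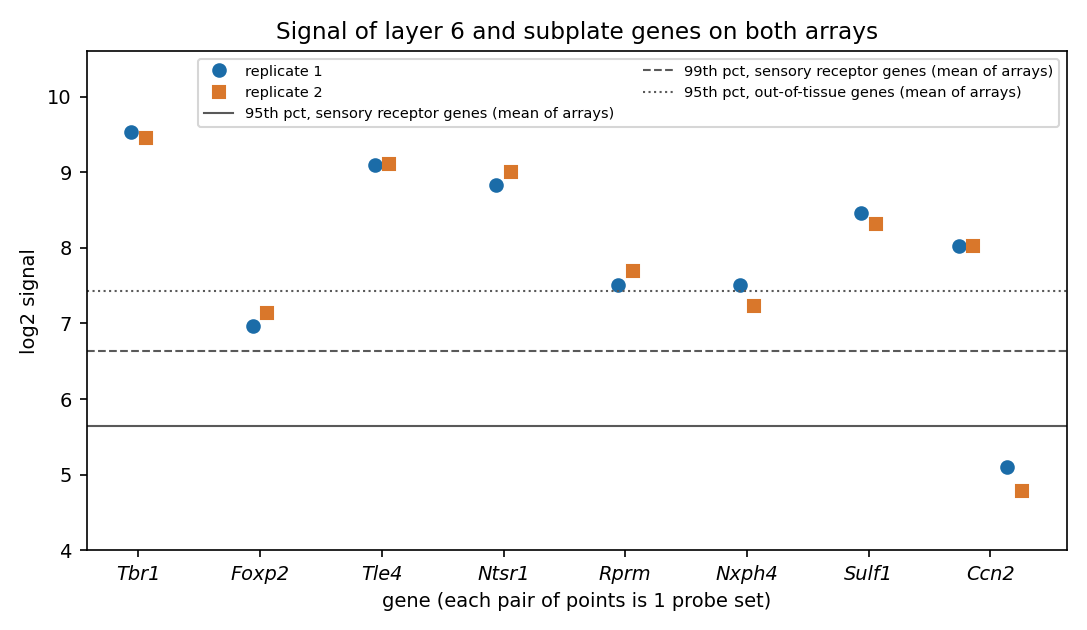
Log2 signal of each probe set on replicate 1 (circles) and replicate 2 (squares) for the 8 layer 6 and subplate genes. Horizontal lines are the thresholds, each averaged over both arrays. Tbr1, Tle4, Ntsr1, Sulf1 and the higher Ccn2 probe set lie at 8.02 or more, Foxp2 lies below the out-of-tissue line, and the lower Ccn2 probe set lies below all lines.

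Of the transcriptional regulators, Tbr1 and Tle4 stood far above background and Foxp2 closer to it. Tbr1, the T-box factor of layer 6 neurons, had signals of 9.53 on replicate 1 and 9.46 on replicate 2 (SD 0.05, n = 2 arrays), on average 3.86 log2 units over background. Of the 1394 sensory receptor genes, 0 lay at or above Tbr1 on either array. Tle4, a corepressor of the Groucho family that marks corticothalamic cells, had 9.10 and 9.11 (SD 0.01), 3.47 units over background. It also exceeded every other threshold, the out-of-tissue one by 1.67 units on average.

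Foxp2, a forkhead transcription factor of corticothalamic cells, had 6.96 and 7.14 (SD 0.13), 1.41 units over background. It passed the 99th sensory receptor percentile by 0.32 units on replicate 1 and 0.50 on replicate 2. It missed the out-of-tissue threshold by 0.46 units on replicate 1 and 0.31 on replicate 2, and 6 sensory receptor genes on each array lay at or above it. Without Odf1, Foxp2 passed that threshold on replicate 2 and missed it by 0.07 units on replicate 1. The call for Foxp2 therefore rested on which threshold was used, unlike those for Tbr1 and Tle4.

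Ntsr1, the neurotensin receptor whose gene is widely used to target corticothalamic cells, had signals of 8.83 and 9.00 (SD 0.12). This was 3.28 units over background and 1.48 over the out-of-tissue threshold, and 0 sensory receptor genes lay at or above it. Its ligand gene Nts had 6.28 and 6.37 (SD 0.06), which was above background but under the 99th sensory receptor percentile. Ntsr1 thus passed every threshold and Nts the 95th percentile and the median of all probe sets only.

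Rprm, which encodes Reprimo, a mediator of cell cycle arrest downstream of p53 and a marker of layer 6 in the cortex, had 7.51 and 7.69 (SD 0.13). It passed background by 1.96 units and the out-of-tissue threshold by 0.09 units on replicate 1 and 0.24 on replicate 2. The margin on replicate 1 was smaller than the SD between the arrays, so this pass was not larger than the technical spread, and it was lost with the liver genes left out of the threshold.

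Of the genes for secreted and extracellular products, Sulf1 passed every threshold, while the calls for Nxph4 and Ccn2 depended on the threshold or the probe set. Nxph4, a neurexophilin, from a family of secreted glycoproteins that bind neurexins, had 7.51 and 7.23 (SD 0.20), 1.73 units over background. It lay 0.09 units over the out-of-tissue threshold on replicate 1 and 0.22 units under it on replicate 2, on different sides of it. Sulf1, an extracellular enzyme that removes sulfate groups from heparan sulfate, had 8.46 and 8.32 (SD 0.10), 2.75 units over background and 0.95 over the out-of-tissue threshold.

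Ccn2, the connective tissue growth factor gene formerly called Ctgf, was the only one of the 8 with more than 1 probe set, and these disagreed. One probe set had 8.02 on both arrays, above every threshold. The other had 5.10 and 4.78 (SD 0.23), below background on both. The probe sets were apart by 2.92 units on replicate 1 and 3.24 on replicate 2, far more than either varied between arrays. Their mean of 6.56 and 6.40 (SD 0.11) passed background by 0.84 units and missed the 99th sensory receptor percentile by 0.08 and 0.24. Such a gap was not unusual on this array: of 968 genes with exactly 2 probe sets, 289 (29.9%) had a gap at least as wide, and the median gap was 2.08 units. Which part of the transcript each probe set targets is not given in the sources used here, so the level of Ccn2 depends on the probe set.

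Between the technical arrays, the 8 genes differed by a median of 0.165 log2 units in size, against 0.12 for all named genes. Of the 8, 5 differed by more than 1 SD of genes of like signal. The share of all named genes that did so was not computed, so this count is not read as a trait of the 8. Replicate 2 was higher for Foxp2, Tle4, Ntsr1 and Rprm and lower for Tbr1, Nxph4, Sulf1 and Ccn2, with a mean difference of -0.01. The largest difference was that of Nxph4, -0.28, against an SD of 0.16 for the 5641 named genes with a mean signal within 1 log2 unit of it. A difference at least that large was seen in 8.07% of those genes. Ntsr1 differed by 0.17, against an SD of 0.12 for genes of like signal, and 17.8% of these differed by as much. Foxp2, Rprm and Sulf1 also differed by slightly more than 1 SD of genes of like signal, by 0.18, 0.18 and -0.14, and at least 23.5% of the genes of like signal differed by as much in each case. Tbr1, Tle4 and Ccn2 differed by less than 1 SD.

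**Figure D2:**
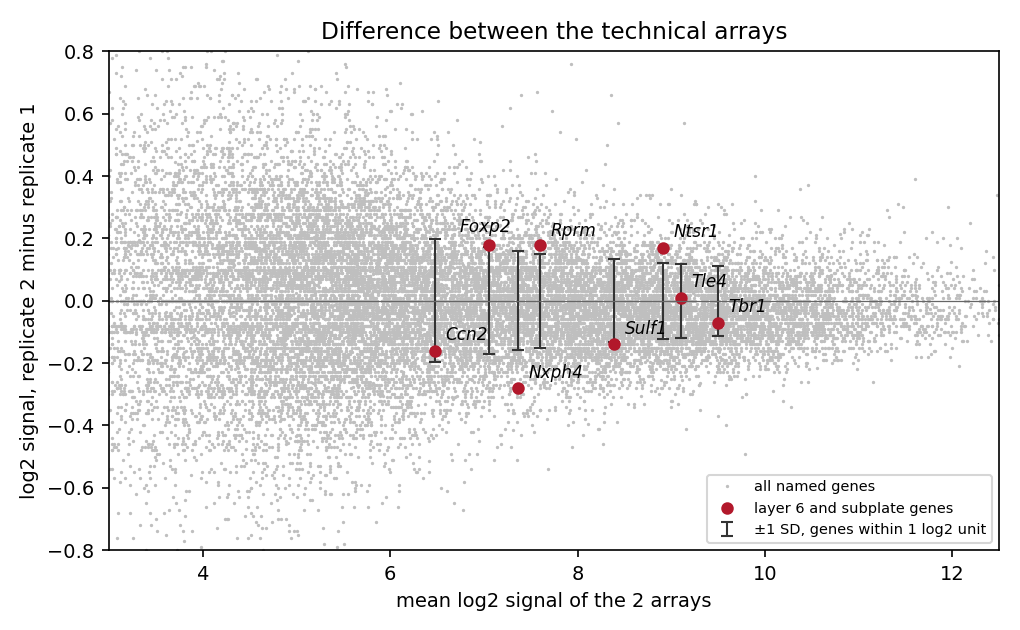
Difference between the arrays (replicate 2 minus replicate 1, log2) against the mean log2 signal, for all named genes (grey) and the 8 layer 6 and subplate genes (red). Bars span 1 SD of the difference either side of 0 over named genes within 1 log2 unit of each gene, and 832 named genes lie outside the axes. Nxph4, at -0.28, lies farthest from 0, and 4 genes lie on each side.

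The families of these genes were set beside them, since a marker can be one of several related genes that the same RNA holds. Of 21 paralogs, 19 were above background, 15 passed the 99th sensory receptor percentile and 10 the out-of-tissue threshold. The shares of all named genes were 60.3%, 45.0% and 35.1%. The median of the paralogs was 7.42. Different probe sets bind with different strength, so a paralog's level is not ranked here against that of the layer marker. What the calls show is which relatives were above background in the same RNA.

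Of the T-box relatives of Tbr1, Eomes, a factor of cortical progenitors, was not above background at 4.63 and 5.13 (SD 0.35). Tbx21, known from T cells, had 6.14 and 6.34 (SD 0.14), which did not reach the 99th sensory receptor percentile. Of these 3 T-box genes, Tbr1 alone was above that percentile.

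Among the forkhead relatives of Foxp2, Foxp1, which is widely expressed in cortical and striatal projection neurons, had 10.08 and 9.99 (SD 0.06), and Foxp4 had 8.97 and 8.94 (SD 0.02). Both passed the out-of-tissue threshold that Foxp2 missed. Foxp3, the factor of regulatory T cells, had 5.86 and 5.71 (SD 0.11) and was over background by 0.25 and 0.05 units only.

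Of the Groucho relatives of Tle4, Tle3 had 9.68 and 9.77 (SD 0.06) and Tle5, a short family member formerly called Aes, had 12.14 on both arrays, and both passed every threshold. Tle2 at 7.13 and 7.28 and Tle6 at 6.39 and 6.38 were above background but not over the out-of-tissue threshold. The Tle1 mean of 5.39 and 5.59 was not above background, although its probe sets lay at 7.56 and 7.59 for the one and 3.22 and 3.59 for the other.

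Ntsr2, the second neurotensin receptor and in brain largely an astrocyte gene, had 8.68 and 8.86 (SD 0.13), and the Reprimo-like gene Rprml had 8.02 and 8.01 (SD 0.01). Both passed every threshold, as did Ntsr1. The astrocyte markers Gfap, Aqp4, Aldh1l1 and Slc1a3 were all above background too, 4 of 4 against 60.3% of named genes, at 6.67 to 8.64. Of these markers, 1 passed the out-of-tissue threshold, Slc1a3, against 35.1% of named genes. The part of astrocytes in the Ntsr2 signal was not tested.

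Of the neurexophilins beside Nxph4, Nxph1, an interneuron-enriched member, had 9.50 and 9.46 (SD 0.03), Nxph3, a layer 6b gene, had 7.55 and 7.63 (SD 0.06), and Nxph2 had 6.88 and 7.19 (SD 0.22). Nxph1 and Nxph3 passed the out-of-tissue threshold and Nxph2 did not. Of the neurexin genes, whose products the family binds, Nrxn3 had 11.89 and 11.84 and Nrxn2 9.50 and 9.45, both above every threshold. Sulf2, the other extracellular sulfatase, had 10.52 and 10.50 (SD 0.01) and, like Sulf1, passed every threshold. In the family of Ccn2, Ccn3, formerly Nov, had 11.38 and 11.37 (SD 0.01), while Ccn1, Ccn4, Ccn5 and Ccn6 had means between 5.94 and 7.42, all above background. Ccn1, Ccn4 and Ccn5 also passed the 99th sensory receptor percentile and Ccn6 did not. Of the 5 Ccn paralogs, Ccn3 alone was above the out-of-tissue threshold, and Ccn1 joined it when Odf1 was left out.

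**Figure D3:**
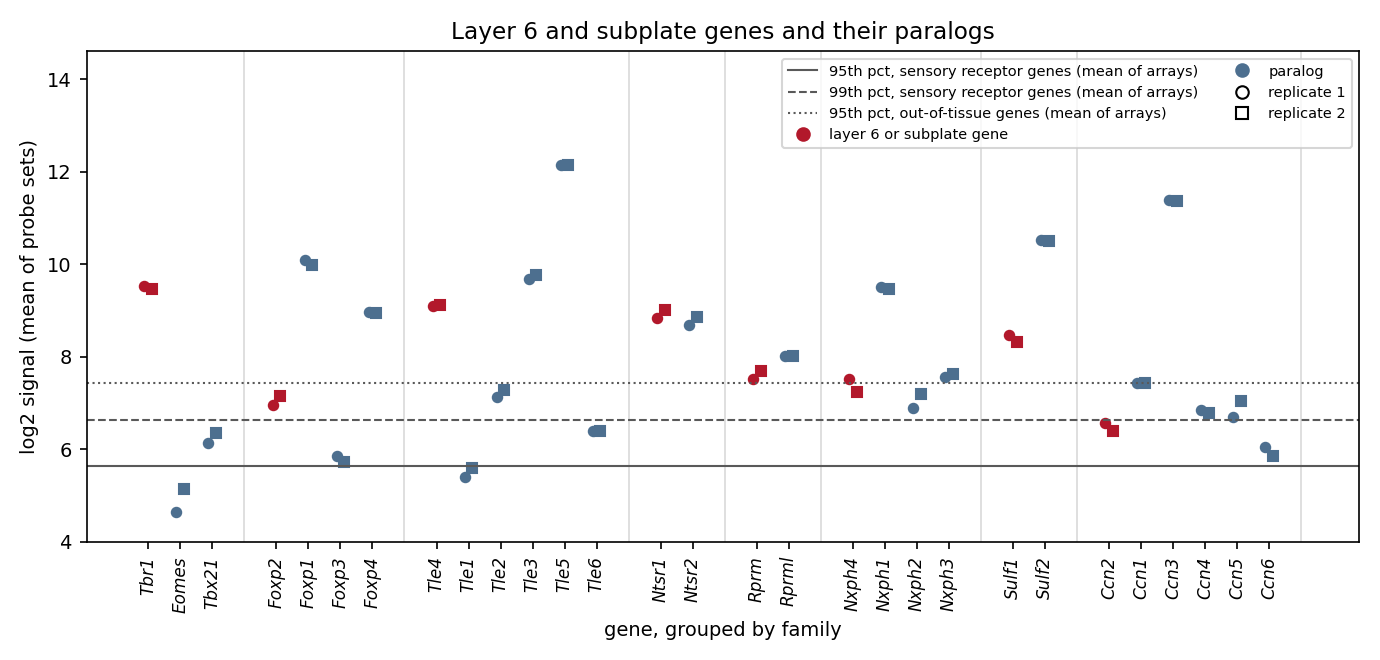
Log2 signal, averaged over probe sets of a gene, on replicate 1 (circles) and replicate 2 (squares) for each layer 6 or subplate gene (red) and its paralogs (blue), grouped by family. Lines are the thresholds averaged over the arrays. Eomes and the Tle1 mean lie below the lowest line, and Foxp1, Tle5, Sulf2 and Ccn3 lie at 9.99 or more on both arrays.

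Other genes known from the same cells were read next. All 7 other corticothalamic genes exceeded background, against 60.3% of named genes. The median of the 7 was 8.20, with a range of 7.35 to 9.43. The out-of-tissue threshold was passed by 35.1% of named genes and by 6 of the 7. They included Sox5, a transcription factor that controls the timing of deep-layer neuron production, at 8.14 and 8.17 (SD 0.02), Zfpm2, a cofactor of GATA factors, at 8.43 and 8.34 (SD 0.06), and Hs3st4, a heparan sulfate sulfotransferase, at 8.26 and 8.13 (SD 0.09). The exception at the out-of-tissue threshold was Syt6, a synaptotagmin, at 7.38 and 7.32 (SD 0.04). Garnl3 at 9.34 and 9.22, Crym, a thyroid hormone binding protein, at 9.43 on both arrays, and Nfia, a nuclear factor I gene, at 7.68 and 7.61 passed it.

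All 8 other layer 6b and subplate genes exceeded background, against 60.3% of named genes. The median of the 8 was 7.50, with a range of 5.91 to 9.43. The out-of-tissue threshold was passed by 35.1% of named genes and by 4 of the 8. Those 4 were Cplx3, a complexin of layer 6b synapses, at 9.23 and 9.08 (SD 0.11), Nr4a2, an orphan nuclear receptor, at 9.44 and 9.41 (SD 0.02), Kcnab1, a potassium channel beta subunit, at 9.01 and 8.96 (SD 0.04), and Nxph3. The lysophosphatidic acid receptor gene Lpar1, at 7.38 and 7.42, and Moxd1, at 7.43 and 7.31, passed the 99th sensory receptor percentile but not the out-of-tissue threshold on both arrays. Lpar1, Moxd1 and Syt6 passed that threshold with either the testis or the skeletal muscle genes left out of it. Inpp4b, at 6.26 and 6.22, and Svil, at 5.84 and 5.98, passed neither. Without Odf1 in the threshold, 7 of 7 corticothalamic and 6 of 8 layer 6b genes passed, against 41.1% of named genes. Nxph3 stands in both this list and that of the paralogs.

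The deep-layer genes were not the only layer markers in this RNA. All 7 measured upper layer markers exceeded background (median 9.77), and 6 of them the out-of-tissue threshold. All 8 layer 5 markers (median 9.54) exceeded both. Over all named genes, the shares were 60.3% and 35.1%. The upper layer gene that missed the out-of-tissue threshold was Cux1, a mean of probe sets at 8.57 and 8.58 and at 4.47 and 4.57. Differences between the lists were not tested, because their probe sets differ and the samples form 1 group. Drd2 itself, the gene that defines the captured cells, had 10.78 and 10.70 (SD 0.06). No unprecipitated RNA and no mock precipitation was analysed here, so the values do not say whether any of these genes is enriched in or expressed by the tagged cells. In pooled tissue, fewer cells of a type and less RNA per cell cannot be told apart.

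Markers of other cells that can carry some of the 8 genes were read in the same arrays. For comparison, 60.3% of all named genes exceeded background, 45.0% the 99th sensory receptor percentile and 35.1% the out-of-tissue threshold. Of 6 measured striatal projection neuron genes, which bear on Foxp2, 5 were above background and above the out-of-tissue threshold, with summed log2 signals of 52.3 on either array. The enkephalin precursor Penk had 12.09 and 12.12, whereas Isl1 was not above background at 5.34 and 5.49. Of 8 vessel cell genes, which bear on Ccn2 and Sulf1, 7 were above background and 4 over the 99th sensory receptor percentile. Only 1, Acta2, was over the out-of-tissue threshold, and the median of the vessel cell genes was 6.815. The 4 over the 99th percentile were Acta2 at 8.12 and 7.95, the endothelial gene Flt1 at 7.26 and 7.06, and the mural cell genes Pdgfrb at 7.22 and 7.20 and Rgs5 at 6.98 and 6.93. The endothelial genes Pecam1 and Cldn5 had 6.75 and 6.60, and 5.95 and 6.12, and Ly6c1, at 4.14 and 4.59, was not above background. All 3 thalamic genes were above background, at 5.77 to 6.57, and 0 of 3 passed the 99th sensory receptor percentile. The call for Gbx2 rested on a mean of probe sets at 5.91 and 5.97 and at 5.64 and 5.56, the latter below background on replicate 2. The part of these cells in the signals of Foxp2, Ccn2 and Sulf1 was not tested.

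**Figure D4:**
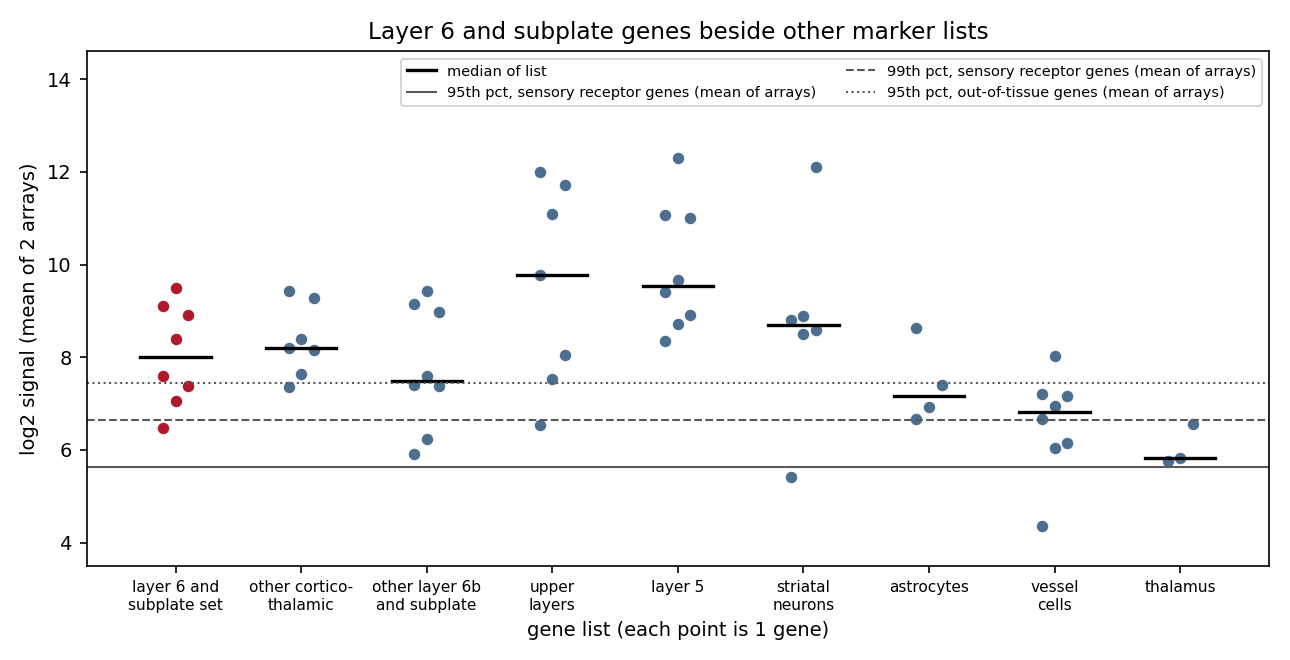
Mean log2 signal over both arrays of each gene in the layer 6 and subplate set (red) and in 8 other marker lists (blue), with each list's median as a black bar and the thresholds as lines. The 8 layer 6 and subplate genes span 6.48 to 9.50, layer 5 genes all lie above the out-of-tissue line, and thalamic genes all lie below the 99th percentile line.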

How the data were processed

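Biotin-labelled RNA from precipitated ribosomes was hybridised to whole-transcript arrays, per the labels' protocols. The authors deposited 1 value per probe set and array, read here as log2 signal from its range (1.66 to 14.18). Not given in the sources used here are the log base, background correction, summarisation, normalization and genome build, and gene positions are therefore not printed. Column medians were 5.80 and 5.81. Of 34472 probe sets, 23521 named 1 gene in the platform annotation, 1814 several and 9137 none. The symbols of all 8 genes matched RefSeq (GRCm38.p6) by gene identifier.

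Probe sets of a gene were averaged. A gene was called above background where it exceeded the threshold on both arrays. With 1 group of technical arrays, no test between groups was possible and no p-value is given; the number of arrays limits the precision. All 8 genes, every listed paralog and partner, and the other layer 6 and 6b genes could be named; genes of the remaining lists were named as examples after their values were seen. Genes and lists were chosen with earlier results of these data known. Alternatives were 3 planned thresholds, the out-of-tissue one without Odf1 or without 1 tissue (added after the data were seen), quantile normalization, each array by itself, the highest probe set of a gene, and genes with 1 probe set. The procedure was tested on simulated data, at background only, with genes set 1 log2 unit above or below it. That distance was far larger than the simulated noise, so the test does not bear on small margins at the other thresholds. Python 3.11.15, pandas 2.3.3 and numpy 2.4.6 were used. Probe sequences were not used here.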

Additional observations from a re-analysis of the deposited data

How the results depend on the processing

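The count of 8 layer 6 and subplate genes above background also held under quantile normalization and at the median of all probe sets. That median was exceeded by 57.5% of named genes. The count was also 8 with the highest probe set of each gene and with either array alone (8 to 8). A call needs both arrays, so either array alone could not lower the count. The highest probe set raised only Ccn2, which already passed. At the 99th sensory receptor percentile the count was 7, against 45.0% of named genes. It was 7 of 7 when only genes with 1 probe set were used, which leaves out Ccn2. Shares of all named genes were not computed for quantile normalization, the highest probe set, either array alone or genes with 1 probe set. Those counts are thus given without a comparison. The count was 5 at the out-of-tissue threshold, against 35.1% of named genes. At that threshold it was 6 without Odf1, without testis genes or without skeletal muscle genes, and 4 without liver genes. The shares of named genes were then 41.1%, 37.8%, 38.9% and 32.4%, in that order. At the out-of-tissue threshold, 4 layer 6b genes passed, against 8 over background, and 10 paralogs, or 12 without Odf1, against 19. Of all named genes, 60.3% exceeded background. Mean margins turned negative for Foxp2 (-0.39) and Nxph4 (-0.066) at the out-of-tissue threshold. The Ccn2 margin turned negative at the 99th percentile (-0.16), the out-of-tissue threshold (-0.96) and that threshold without Odf1 (-0.36). These changes follow from the height of the thresholds, and those for Ccn2 also from the averaging of its probe sets, the higher of which passed every threshold. With the highest probe set, the Ccn2 signal was 8.02 in place of 6.48, and no other gene of the 8 moved, since each has 1 probe set. Quantile normalization moved no gene of the 8 by more than 0.01. The columns already had like distributions, with medians of 5.80 and 5.81, so this setting could hardly change the count. Signal over background limits the calls for Foxp2, Rprm, Nxph4 and Ccn2, whose margins over the out-of-tissue threshold are small or negative.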
